A study of Mus musculus with 19 samples.

Results

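Perigonadal adipose tissue, the fat pad that in male mice lies around the epididymis, was compared between C57BL/6 mice of the Ensure model of weight gain that were fed and mice of the same model that had gone 24 hours without feeding. The comparison used 11 of the 19 RNA sequencing libraries of the series: 6 labelled Ensure fed, taken at peak weight (title numbers 1, 9, 10, 12, 16 and 18), and 5 labelled Ensure fasted (title numbers 2, 5, 7, 8 and 17). The members are all libraries of these groups, and every gene of the count tables was considered. The series examined 2 models of weight gain at peak weight or after 24 hours of food withdrawal. The other model, a 60% high-fat diet (HFD), gave 4 fed and 4 fasted libraries, which shared the statistical fit and served for 1 test of a difference between the models. The tissue was whole fat, so adipocytes, stromal, vascular and immune cells were sequenced together. The labels give strain, diet, feeding state and tissue, and no age. Whether each library is a separate animal is not stated there, and the p-values cover only the variation among these libraries, which may be technical.

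White adipocytes store triglyceride when insulin and glucose are high. They then take up glucose, turn it into fatty acids and sterols, and esterify the fatty acids. Without food, insulin falls, catecholamines and glucocorticoids rise, stored triglyceride is broken down by lipases, and pyruvate is kept from oxidation by pyruvate dehydrogenase kinases.

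Each Ensure library held 12.82 to 21.11 M (mega) counts in genes (median 19.08 M), and Ensure fasted 2 was the shallowest. Levels below are CPM, counts divided by the TMM-scaled library size in M, and 3 counts correspond to 0.142 to 0.234 CPM. Adipoq, the adiponectin gene that marks adipocytes, was at 1112 to 3040 CPM in the 11 libraries, lowest in Ensure fasted 5. A list of 21 epididymis, testis and sperm markers summed to 10882 CPM in Ensure fasted 5, 1413 CPM in Ensure fasted 2, 808 CPM in Ensure fed 10 and 280.0 CPM in Ensure fed 12, against 58.9 to 107 CPM in the 7 other libraries. Crisp1, an epididymal secretory protein, made up 8391 CPM of the sum in Ensure fasted 5, and Prm1, a sperm protamine, reached 117 CPM in Ensure fasted 2. Ensure fasted 5 also held 10853 CPM of 14 smooth muscle markers, against 1159 to 1820 CPM in the other 10 libraries. Sequencing lane was uneven: 4 fasted libraries and Ensure fed 1 ran in lane 5, Ensure fasted 17 and 4 fed libraries in lane 6, and Ensure fed 18 in lane 7 with the HFD libraries. Fasting was therefore tested in 3 fits: without a covariate, with lane as a term, and without Ensure fasted 2 and 5.

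Fasting was accompanied by changes in 3255 of 16015 tested genes (20.3%) in the fit without a covariate (edgeR's quasi-likelihood test, Benjamini-Hochberg adjusted p under 0.05, which is what called means below). Of these, 1690 genes (10.6% of all tested) rose and 1565 (9.77%) fell, 693 and 188 of them by at least 2-fold. Leaving out Ensure fed 9, Ensure fed 12, Ensure fed 18 or Ensure fasted 5 gave 904, 1016, 888 and 980 rises in that order, and leaving out HFD fasted 28 gave 2526 falls. The fed and fasted libraries did not overlap in CPM for 909 genes that were higher (5.68%) and 1486 that were lower (9.28%). With lane as a term 260 genes rose (1.62%) and 500 fell (3.12%), and without Ensure fasted 2 and 5 1061 rose (6.68% of 15880) and 1246 fell (7.85%). Called with the same sign in all 3 fits were 255 genes that rose (1.59%) and 499 that fell (3.12%), and these 754 genes carry most of the account below. In 696 of the 754 the fed and fasted libraries did not overlap. Relative to the mean of the fed libraries, the 255 genes had median log2 values of 0.64 to 0.89 in the 5 fasted libraries, and the 499 genes had medians of -0.57 to -0.74.

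The lane term rests on few libraries. Without Ensure fed 1, the only fed library of lane 5, no gene was called in all 3 fits, and without Ensure fasted 17, the only fasted library of lane 6, 3 rose and 33 fell. Leaving out Ensure fed 10 or 12 left 165 and 158 rises, leaving out Ensure fasted 5 gave 883 falls, and leaving out HFD fasted 28 gave 477 rises and 1209 falls. The libraries of both lanes entered the fits that chose the 754 genes. The signs and calls of these genes within a lane are therefore fixed in large part by the choice and support nothing. In lane 6 alone 454 of them were called (in that lane 2.47% of all genes tested there rose and 4.51% fell). In the fit without a covariate, 743 of the 754 stayed called with each of the 11 Ensure libraries left out in turn. That fit was 1 of the 3 that chose the genes, so this count supports nothing either. Lane 5 alone held 1 fed library, which gives no spread among fed libraries, so calls there cannot decide on change within that lane. In whole tissue, a change in the number of cells of a type and a change in RNA per cell cannot be told apart, and this holds for every gene below.

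The largest rises among genes called in all 3 fits at a mean of at least 5 CPM, predicted names passed over, included Pdk4 and Vnn1. Genes with overlap between fed and fasted libraries were passed over too, so the absence of overlap follows from the choice. Fasted values are given in the order of libraries 2, 5, 7, 8 and 17. Pdk4, a kinase that switches off pyruvate dehydrogenase, was at 239, 254, 657, 678 and 559 CPM after fasting and 44.0 to 107 CPM (median 83.7) when fed. Every fasted library was above every fed library, with Ensure fasted 2 and 5 the lowest of the 5, and Pdk4 rose (log2 fold change 2.56 ± 0.33 SE, adjusted p = 9.38e-05). Vnn1, a pantetheinase and textbook target of the fatty acid receptor PPARalpha, was at 46.1, 34.8, 61.4, 41.9 and 62.2 CPM after fasting and 3.44 to 6.93 CPM (median 5.65) when fed. It rose in all 5 fasted libraries (log2 fold change 3.22 ± 0.40 SE, adjusted p = 6.77e-05).

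Other genes among the largest rises had little in common by known function. They were the organic ion transporter family gene Slc22a14 (log2 fold change 2.57), the zinc-finger gene Zim1 (2.49), the Myc-family gene Mycl (2.27), the RNA-binding protein gene Zfr2 (2.14), the collagen gene Col20a1 (1.90), the hypoxia factor Hif3a (1.81), the kainate receptor subunit Grik5 (1.64) and the alpha-arrestin Arrdc3 (1.63). Mycl was highest in Ensure fasted 7, at 33.5 CPM, with 19.4 to 20.4 CPM in fasted libraries 2, 5, 8 and 17. Catsperg1, a subunit of the sperm calcium channel, was at 22.0, 10.0, 11.3, 8.50 and 11.6 CPM after fasting and 2.17 to 3.77 CPM (median 2.46) when fed. It was highest in Ensure fasted 2, the library with the most sperm transcripts, and its log2 fold change was 2.23 with all libraries and 1.93 without Ensure fasted 2 and 5 (adjusted p = 0.000599, edgeR).

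The largest falls were taken by the same rule, absence of overlap included. Scd2, Agpat2, Slc25a10, Acly and Acss2, described below, were taken by it too. Lppr4, a membrane protein related to lipid phosphate phosphatases, was at 5.95, 2.25, 3.73, 1.38 and 4.06 CPM after fasting and 27.0 to 47.3 CPM (median 40.6) when fed. Grid1, a delta-type glutamate receptor subunit, was at 1.82, 0.850, 1.51, 0.922 and 0.7103 CPM after fasting and 6.87 to 11.2 CPM (median 10.6) when fed. No fasted library of either gene came near the fed range (log2 fold change -3.46 ± 0.48 SE, adjusted p = 0.000148 for Lppr4; log2 fold change -3.11 ± 0.34 SE, adjusted p = 2.97e-05 for Grid1). Tuba1a, an alpha-tubulin, was at 242, 124, 244, 301 and 333 CPM after fasting and 1234 to 1633 CPM (median 1528) when fed. Trabd2b, a membrane metalloprotease that cleaves Wnt proteins, was at 33.9, 13.7, 32.6, 29.1 and 37.5 CPM after fasting and 129.6 to 195 CPM (median 160.0) when fed. Both fell in all 5 fasted libraries, Tuba1a (log2 fold change -2.57 ± 0.30 SE, adjusted p = 4.43e-05) and Trabd2b (log2 fold change -2.46 ± 0.24 SE, adjusted p = 1.63e-05). The proton channel Otop1 (log2 fold change -2.47), the progestin receptor family member Paqr9 (-2.43) and the EGF-repeat membrane protein Megf9 (-1.86) fell as well.

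**Figure D1:**
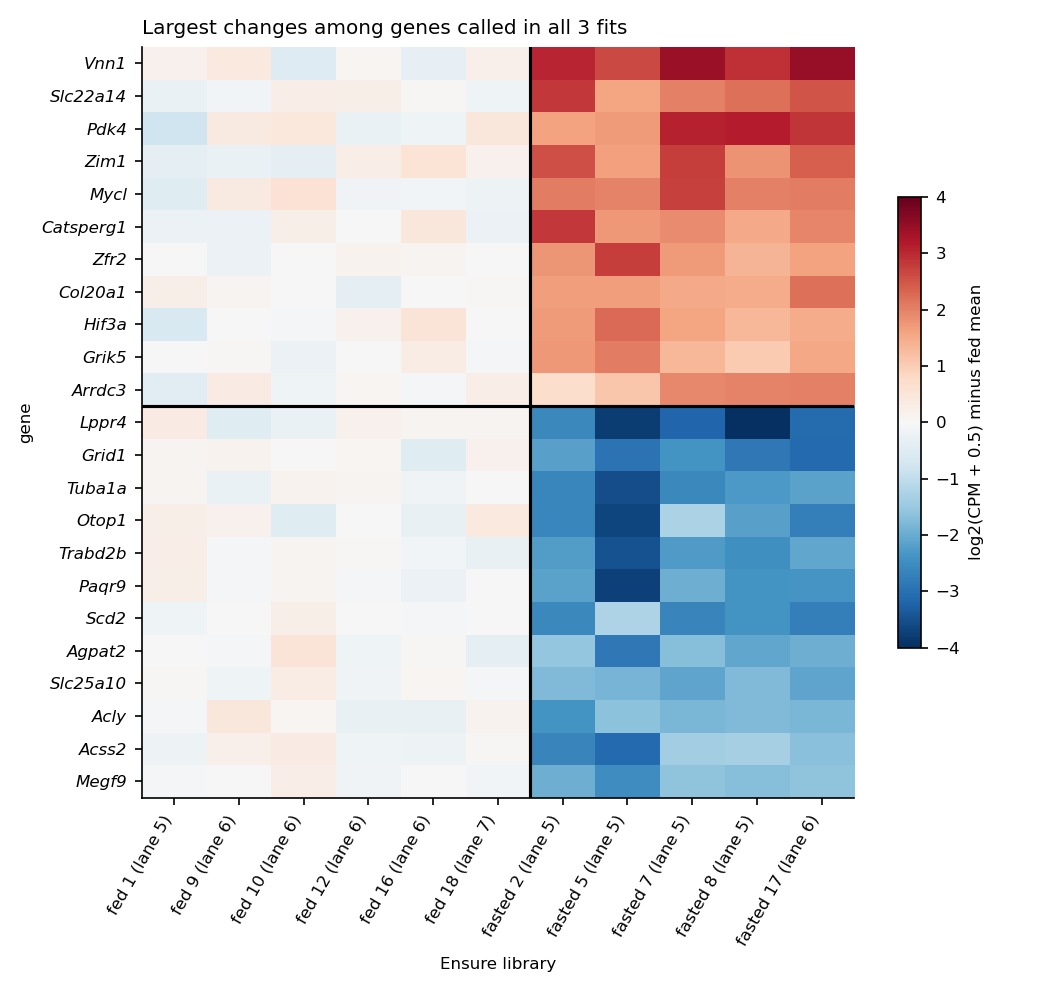
Colour shows log2(CPM + 0.5) minus the mean of the fed libraries for 23 genes (vertical axis) in the 6 fed and 5 fasted Ensure libraries (horizontal axis, with lane). The genes are 11 of the largest rises and the 12 largest falls among those called in all 3 fits, at a mean of at least 5 CPM. Only genes without overlap between fed and fasted libraries were taken, so all 5 fasted libraries being on the same side follows from the choice.

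Genes of pyruvate entry into mitochondria changed at several steps. Among all tested genes 10.6% rose and 9.77% fell, 1.59% and 3.12% in all 3 fits. Of 14 tested genes of pyruvate dehydrogenase, its kinases and phosphatases and the pyruvate carrier, 4 rose (Pdk1, Pdk2, Pdk4 and Pdp1) and 5 fell (Pdhb, Dlat, Dld, Pdhx and Mpc2), and 2 and 4 did so in all 3 fits. In 13 of the 19 omissions of 1 library 2 rose, and Pdk1 and Pdp1 lost their calls in 14 and 16 omissions. The kinases Pdk4 and Pdk2 rose in all 3 fits (2.56 and 1.14). Pdhx, the subunit that tethers the E3 enzyme of the complex, was at 33.7, 27.0, 37.1, 36.3 and 35.7 CPM after fasting and 65.4 to 79.3 CPM (median 70.2) when fed. The fasted libraries formed a narrow band below the fed ones (log2 fold change -1.07 ± 0.09 SE, adjusted p = 3.4e-06). Pdhb, a subunit of the E1 enzyme, was at 50.3, 44.4, 80.6, 73.6 and 68.0 CPM after fasting and 119.5 to 146 CPM (median 121) when fed. It fell (log2 fold change -0.99 ± 0.13 SE, adjusted p = 0.000127), and the E2 enzyme gene Dlat and the pyruvate carrier gene Mpc2 fell with it (-0.81 and -0.56). Pdk2 and Mpc2 were picked after their values were seen.

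Downstream of pyruvate dehydrogenase, 7 of 17 citric acid cycle genes fell and 0 rose, 4 of them in all 3 fits, with a median log2 fold change of -0.26 against 0.11 over all tested genes. Without HFD fasted 28 it was 11 genes. Among all tested genes 9.77% fell, and 3.12% fell in all 3 fits. Cs, citrate synthase, was at 304, 242, 392, 363 and 353 CPM after fasting and 556 to 655 CPM (median 586) when fed. The fed libraries were higher without overlap (log2 fold change -0.84 ± 0.11 SE, adjusted p = 8.74e-05). Idh3a, Dlst and Fh1, which encode subunits or enzymes of 3 later steps, fell by 1.04, 0.46 and 0.49 on the log2 scale. Of 46 respiratory chain and ATP synthase genes, 12 fell and 0 rose, 3 of them in all 3 fits (median -0.22; up to 31 falls with 1 library left out, the most without HFD fasted 28): Uqcrc2 (-0.57), Atp5g3 (-0.51) and Cyc1 (-0.45). Of 31 genes of fatty acid oxidation and ketone bodies, 4 rose (Acaa1b and Vnn1 among them) and 4 fell (Cpt2, Acaa1a, Etfdh and Oxct1). Both counts were near the share over all tested genes, of which 10.6% rose and 9.77% fell. Vnn1 was among the 2 that rose in all 3 fits. Leaving out HFD fasted 28 gave 8 falls, and leaving out Ensure fasted 7 gave 7. With lane as a term, and also without Ensure fasted 2 and 5, 0 of the 31 fell (edgeR), and 2 and 4 rose. Oxct1 lost its call without Ensure fed 12.

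Genes of fatty acid synthesis fell together. Of 16 tested genes, 9 fell and 0 rose, against 9.77% and 10.6% of all tested genes. In all 3 fits 3 fell, against 3.12% of all. The median log2 fold change was -0.83, against 0.11 over all genes. Acly, which splits citrate into cytosolic acetyl-CoA, was at 213, 361, 318, 334 and 321 CPM after fasting and 919.8 to 1534 CPM (median 1134) when fed. Acly was lowest in Ensure fasted 2 and overlapped in no library (log2 fold change -1.89 ± 0.20 SE, adjusted p = 2.38e-05). Fasn, fatty acid synthase, was at 1621, 1248, 3783, 3642 and 3864 CPM after fasting and 7009.5 to 11293 CPM (median 9270.3) when fed. Fasn fell (log2 fold change -1.70 ± 0.32 SE, adjusted p = 0.0018), and Ensure fasted 2 and 5 were below the other fasted libraries. Acss2, which makes acetyl-CoA from acetate, fell as well (-1.89). Pgd, an NADPH-producing enzyme of the pentose phosphate pathway, was called without a covariate (-1.01, adjusted p = 0.00226) and not with lane as a term (-0.96, adjusted p = 0.0547, edgeR).

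Slc25a10, the mitochondrial dicarboxylate carrier, was at 143, 133, 113, 143 and 114 CPM after fasting and 429.9 to 597 CPM (median 487) when fed. The 5 fasted libraries lay within a narrow range far below the fed ones (log2 fold change -1.93 ± 0.16 SE, adjusted p = 3.77e-06). Scd2, a stearoyl-CoA desaturase, was at 316, 802, 301, 355 and 280.4 CPM after fasting and 1671 to 2211 CPM (median 1883) when fed. Ensure fasted 5 was higher than the 4 other fasted libraries, and no fasted library reached the fed range (log2 fold change -2.20 ± 0.34 SE, adjusted p = 0.000396). Of 15 desaturase and elongase genes, Scd2 was the 1 that fell, and 2 rose. Those 2, Fads6 and Scd3, were highest in Ensure fasted 5, at 15.4 and 10.9 CPM, and were not called without Ensure fasted 2 and 5 (0.53 and 0.72 on the log2 scale; adjusted p = 0.305 and 0.296, edgeR). Fads6 lost its call without Ensure fasted 5 and Scd3 in 9 of the 19 omissions of 1 library. Scd3 can share reads with its near-identical neighbours.

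Genes of triglyceride assembly followed the same direction. Of 16 tested genes, 8 fell and 0 rose, 3 of them in all 3 fits (median -0.56). The shares of all tested genes that fell were 9.77% without a covariate and 3.12% in all 3 fits. Agpat2, which acylates lysophosphatidic acid and whose loss causes lipodystrophy, was at 260.3, 104, 233, 182 and 198 CPM after fasting and 600.2 to 1098 CPM (median 754) when fed. Agpat2 was lowest in Ensure fasted 5 and did not overlap between the groups (log2 fold change -2.00 ± 0.22 SE, adjusted p = 3.18e-05). Dgat2, which adds the last acyl chain, was at 1261, 562, 1930.0, 1415 and 1441 CPM after fasting and 3931 to 5097 CPM (median 4872) when fed. Dgat2 fell (log2 fold change -1.84 ± 0.24 SE, adjusted p = 0.000104). The groups did not overlap. Pnpla3, a droplet-bound protein that is raised by feeding, was at 473, 186, 547, 358 and 396 CPM after fasting and 959 to 1107 CPM (median 1028) when fed, and fell (log2 fold change -1.39 ± 0.22 SE, adjusted p = 0.000465). The glycerol phosphate acyltransferase Agpat9 fell without a covariate (-1.29, adjusted p = 0.00411) and was not called with lane as a term (-1.25, adjusted p = 0.0698, edgeR).

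Cholesterol synthesis was the list with the lowest median. Of 20 tested genes, 12 fell and 0 rose, 10 fell in all 3 fits, and the median log2 fold change was -1.08. Among all tested genes 9.77% fell, and 3.12% fell in all 3 fits. Hmgcs1, the cytosolic HMG-CoA synthase, is listed at 0 in every library and was not tested; the 0 is not read as absence of expression. The genes ran from the mevalonate steps to the last sterol steps, and the 4 with the smallest p are described here. Mvk, mevalonate kinase, was at 21.1, 18.99, 22.3, 21.2 and 22.2 CPM after fasting and 37.3 to 55.2 CPM (median 42.7) when fed. Pmvk, the next kinase of the pathway, was at 31.3, 20.9, 40.2, 38.5 and 36.6 CPM after fasting and 86.5 to 118 CPM (median 91.7) when fed. Both fell without overlap, Mvk (log2 fold change -1.07 ± 0.14 SE, adjusted p = 0.000123) and Pmvk (log2 fold change -1.50 ± 0.17 SE, adjusted p = 3.18e-05). Lss, which closes squalene epoxide into lanosterol, was at 26.9, 34.9, 42.3, 44.3 and 30.9 CPM after fasting and 78.3 to 115 CPM (median 89.1) when fed. Nsdhl, which acts in the removal of the C4 methyl groups, was at 39.7, 39.2, 48.2, 45.5 and 41.1 CPM after fasting and 100.4 to 149 CPM (median 114) when fed. Lss and Nsdhl fell by a similar amount (log2 fold change -1.36 ± 0.20 SE, adjusted p = 0.00022 for Lss; log2 fold change -1.48 ± 0.20 SE, adjusted p = 0.000114 for Nsdhl). The other 6 genes that fell in all 3 fits, Mvd, Idi1, Cyp51, Hsd17b7, Sc5d and Dhcr7, had log2 fold changes of -1.63 to -1.09.

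The promoters of these 4 genes are printed because the list moved together. They are the 250 bases before the start site, 5′ to 3′ on the gene's strand, from RefSeq (GRCm38.p6), with the CCAAT pentamer, the core of the site bound by NF-Y, in capitals on either strand (ATTGG on the opposite strand). The counts were made on build mm9, so these coordinates belong to the reference and not to the deposited data.
Mvk (chr5:114444019-114444268, plus strand): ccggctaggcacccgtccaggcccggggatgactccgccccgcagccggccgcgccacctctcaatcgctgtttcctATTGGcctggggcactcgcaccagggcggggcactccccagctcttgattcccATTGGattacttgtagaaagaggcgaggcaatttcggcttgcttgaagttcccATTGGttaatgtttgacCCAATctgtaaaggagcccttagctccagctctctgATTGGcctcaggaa
Pmvk (chr3:89454291-89454540, plus strand): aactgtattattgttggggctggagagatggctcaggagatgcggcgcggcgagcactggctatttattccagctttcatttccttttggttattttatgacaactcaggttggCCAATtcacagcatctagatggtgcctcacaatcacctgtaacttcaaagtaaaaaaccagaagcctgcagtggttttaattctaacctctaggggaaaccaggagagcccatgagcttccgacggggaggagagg
Lss (chr10:76531355-76531604, plus strand): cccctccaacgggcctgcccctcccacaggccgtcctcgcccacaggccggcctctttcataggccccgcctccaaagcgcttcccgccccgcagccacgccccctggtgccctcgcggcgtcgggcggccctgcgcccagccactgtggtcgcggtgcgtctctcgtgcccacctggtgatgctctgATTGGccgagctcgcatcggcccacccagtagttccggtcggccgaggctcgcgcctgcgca
Nsdhl (chrX:72918271-72918520, plus strand): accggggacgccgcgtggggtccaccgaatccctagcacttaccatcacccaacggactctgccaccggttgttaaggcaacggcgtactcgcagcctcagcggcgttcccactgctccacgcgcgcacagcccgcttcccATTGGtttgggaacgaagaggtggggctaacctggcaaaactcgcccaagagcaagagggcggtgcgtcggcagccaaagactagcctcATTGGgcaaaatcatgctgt
Mvk holds 5 matches in this stretch, Nsdhl 2, and Pmvk and Lss 1 each. Another RefSeq start of Pmvk has 0 matches. In windows of 300 bases, 250 before to 50 after a start, all 10 genes that fell in all 3 fits had CCAAT in at least 1 promoter, as did 14 of the 15 list members with a RefSeq promoter (93.3%). The share was 42% of 11990 tested genes with a promoter sequence, 49.2% of 374 genes that fell in all 3 fits, 41.1% of 197 that rose, and 41.1% of all 27025 genes searched. It was also 81.2% of the 16 circadian clock genes with a promoter, so a high share was not particular to the sterol genes. The exact sterol element core TCACCCCAC, searched on both strands, was in the promoters of 0 of these 10 genes and of 0.614% of all genes. These letters are absent from the windows, which says nothing of the factor. A match is a description of the sequence.

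The list of sterol sensing and transport was mixed. Beside it, 10.6% of all tested genes rose and 9.77% fell, 1.59% and 3.12% in all 3 fits. Of 18 genes, 3 fell, each in all 3 fits, and 2 rose, 0 of them in all 3 fits, with a median log2 fold change of 0.08 against 0.11 over all tested genes. Without Ensure fasted 2 and 5, 3 fell and 4 rose, and with 1 library left out 0 to 3 rose and 3 to 5 fell. Insig1, the sterol-regulated anchor of the SREBP factors, was at 161, 73.8, 132, 123 and 97.1 CPM after fasting and 296 to 408 CPM (median 369) when fed. Insig1 was lower in every fasted library (log2 fold change -1.60 ± 0.24 SE, adjusted p = 0.000343). Srebf1, the gene of the lipogenic factor SREBP-1, was at 321, 268, 328, 299 and 281 CPM after fasting and 389.5 to 539.7 CPM (median 431) when fed. Srebf1 was lower in every fasted library than in any fed one (log2 fold change -0.56 ± 0.13 SE, adjusted p = 0.00733). Mlxipl, which encodes the glucose-responsive factor ChREBP, fell without a covariate (-0.55, adjusted p = 0.013) and was not called with lane as a term (adjusted p = 0.163, edgeR).

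**Figure D2:**
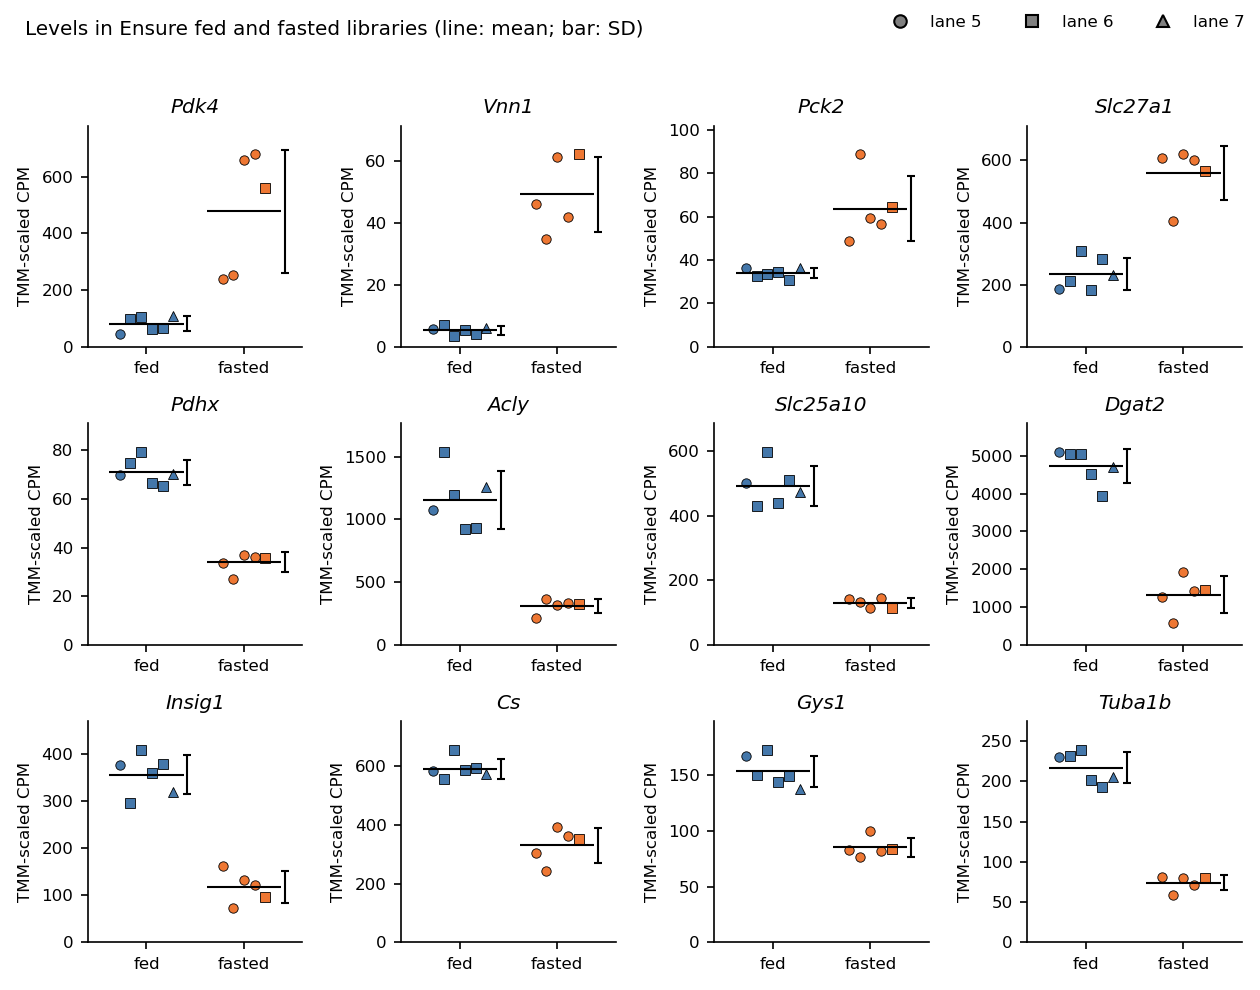
TMM-scaled CPM (vertical axes, from 0) of 12 genes in Ensure fed (blue, n = 6) and fasted (orange, n = 5) libraries; symbols give the lane, lines the mean and bars the SD. No gene shown has a fasted library inside the fed range, which was a condition of choice for Pdk4, Vnn1, Acly and Slc25a10. The other genes were named for the smallest p in their lists from these same libraries, so their separation follows in large part from the choice too. Pdk4 has the widest spread after fasting.

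The genes of triglyceride breakdown did not move as a group. For the counts in this paragraph, 10.6% of all tested genes rose and 9.77% fell, 1.59% and 3.12% in all 3 fits. Of 12 lipase genes and regulators, 1 rose (Pnpla7) and 3 fell (Abhd5, G0s2 and Faf2), and 0 were called in all 3 fits. Without Ensure fasted 2 and 5, 3 rose and 2 fell, and the list's median went from 0.10 to 0.29. Pnpla7 was not called without Ensure fed 12 or Ensure fasted 8 or 17, nor Faf2 without Ensure fed 1 or 12 or Ensure fasted 17. Pnpla2, the adipose triglyceride lipase, was at 1682, 1143, 2446, 2439 and 2406 CPM after fasting and 1212 to 1681 CPM (median 1382) when fed. The groups overlapped and Pnpla2 was not called (log2 fold change 0.51 ± 0.24 SE, adjusted p = 0.14); without Ensure fasted 2 and 5 its log2 fold change was 0.75 (adjusted p = 0.0482, edgeR). Lipe, hormone-sensitive lipase, was not called (-0.24, adjusted p = 0.405). G0s2, an inhibitor of adipose triglyceride lipase, fell without a covariate (-0.72, adjusted p = 0.00682), as did Abhd5, its coactivator (-0.70, adjusted p = 0.00623). Lane as a term ended both calls (adjusted p = 0.0921 and 0.134, edgeR). Of 21 adrenergic and cAMP genes 0 rose and 3 fell without a covariate. Prkaca, the catalytic subunit of protein kinase A, was the 1 of the 21 called in all 3 fits, and it fell (log2 fold change -0.72 ± 0.10 SE, adjusted p = 0.000162).

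Fatty acid uptake and droplet genes showed single changes. Beside them, 1.59% of all tested genes rose in all 3 fits and 3.12% fell. Slc27a1, the fatty acid transporter FATP1, was at 606, 405, 619, 600.2 and 565 CPM after fasting and 183 to 309 CPM (median 222) when fed. Slc27a1 rose in every fasted library, least in Ensure fasted 5 (log2 fold change 1.26 ± 0.22 SE, adjusted p = 0.000817). Gm6484, the symbol in the files for Angptl8, a feeding-induced inhibitor of lipoprotein lipase, was at 5.53, 2.099, 4.10, 6.13 and 9.08 CPM after fasting and 20.9 to 42.2 CPM (median 25.1) when fed. Gm6484 fell (log2 fold change -2.41 ± 0.38 SE, adjusted p = 0.000436). Slc27a1 and Gm6484 were the 2 genes of 19 in the uptake list called in all 3 fits. Lpl, lipoprotein lipase, was not called (-0.29, adjusted p = 0.367, edgeR). Of 14 lipid droplet genes, Tmem159, a droplet assembly factor, and the droplet enzyme Hsd17b11 rose in all 3 fits (1.00 and 0.61). Plin5, a perilipin that couples droplets to mitochondria, was at 22.9, 32.9, 36.6, 25.7 and 25.6 CPM after fasting and 11.7 to 18.4 CPM (median 15.3) when fed. It was called without a covariate (log2 fold change 0.91 ± 0.20 SE, adjusted p = 0.00514) and not with lane as a term (adjusted p = 0.0986).

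Glyceroneogenesis makes the glycerol backbone for re-esterification from pyruvate when glucose is short. Among all tested genes 10.6% rose and 9.77% fell, 1.59% and 3.12% in all 3 fits. Of 12 tested genes of this list, 3 rose and 5 fell, 1 and 2 of them in all 3 fits, with a median of -0.27, and the dicarboxylate carrier Slc25a10 described above was among the falls. Pck1, its rate-limiting cytosolic enzyme, was at 1019, 956, 2412, 2495 and 2429 CPM after fasting and 485 to 875 CPM (median 662) when fed. Ensure fasted 2 and 5 were just above the fed range and the 3 other fasted libraries far above it. Pck1 rose without a covariate (log2 fold change 1.53 ± 0.43 SE, adjusted p = 0.0194) but was not called with lane as a term (1.84, adjusted p = 0.0827). Pck2, the mitochondrial form, was at 48.8, 88.7, 59.6, 56.9 and 64.7 CPM after fasting and 30.7 to 36.4 CPM (median 34.1) when fed. Pck2 rose in all 3 fits without overlap (log2 fold change 0.90 ± 0.13 SE, adjusted p = 0.00022).

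Genes of glucose storage and use gave more falls than rises. Over all tested genes 9.77% fell, and 3.12% fell in all 3 fits. Of 17 glycogen genes 7 fell and 0 rose, 3 of them in all 3 fits, among them the muscle-type glycogen synthase Gys1 and the phosphatase targeting subunit Ppp1r3d. Gys1 was at 83.4, 76.8, 100.5, 82.4 and 83.6 CPM after fasting and 138 to 173 CPM (median 149.9) when fed. It fell (log2 fold change -0.85 ± 0.17 SE, adjusted p = 0.00278), with Ensure fasted 7 the highest fasted library. Ppp1r3d fell by 0.97 on the log2 scale. Of 24 glucose transport and glycolysis genes, 8 fell and 2 rose (Slc2a3 and Hk1), and 1 fell in all 3 fits, the phosphofructokinase Pfkp (-0.71). The median of this list was -0.20, and 10 of the 24 genes had a log2 fold change above 0. The insulin-responsive transporter Slc2a4 was lower without a covariate (-0.60, adjusted p = 0.0266); it was called neither with lane as a term (adjusted p = 0.287) nor without Ensure fasted 2 and 5 (adjusted p = 0.173, edgeR). Slc2a3, a glucose transporter of sperm, neurons and leukocytes, was at 109.8, 108, 15.8, 15.9 and 16.1 CPM after fasting and 5.52 to 15.0 CPM (median 7.03) when fed. It was called higher with all libraries (2.71) and not without Ensure fasted 2 and 5 (0.95, adjusted p = 0.21). The part of the tract reads in this rise was not tested.

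**Figure D3:**
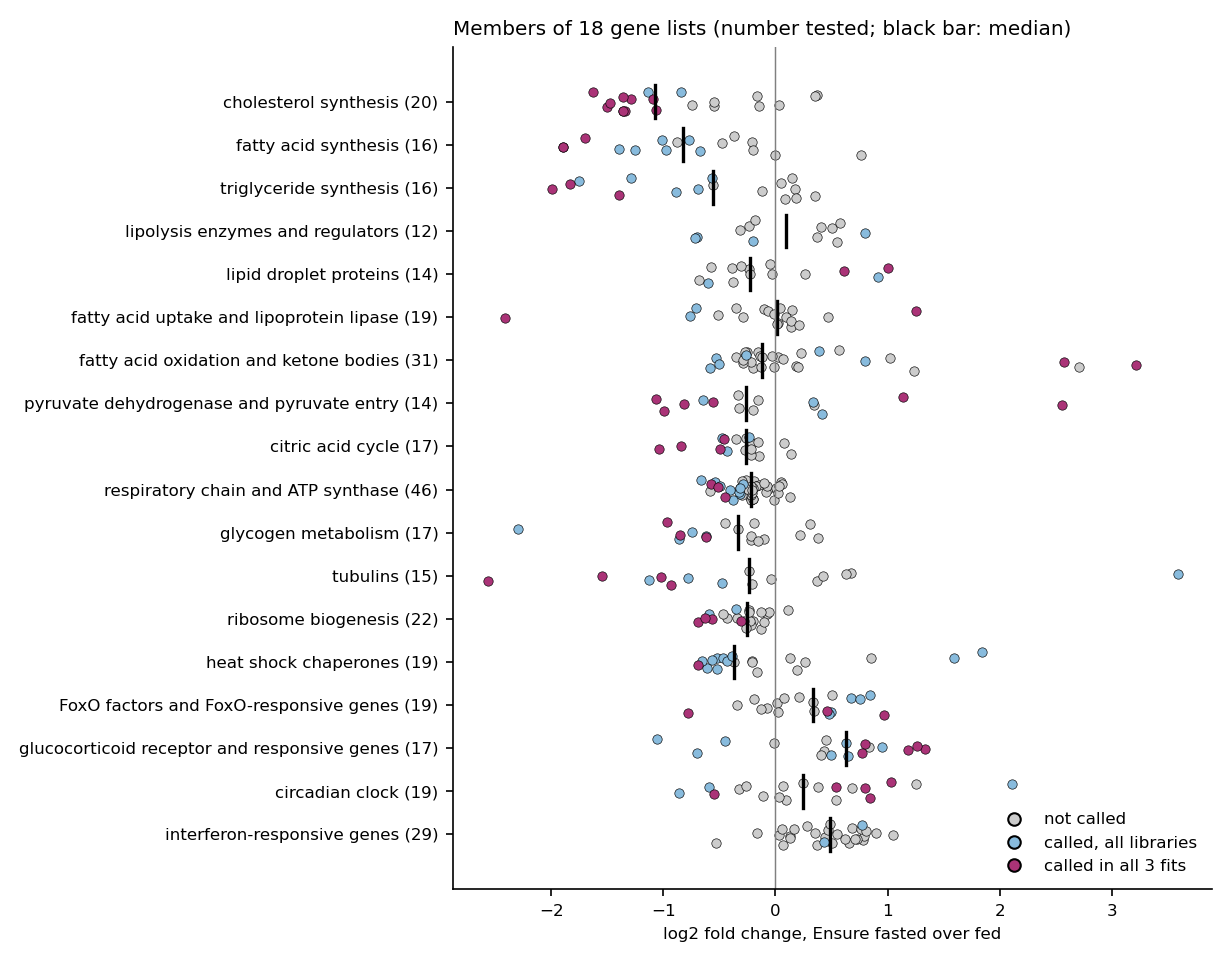
Each point is the log2 fold change (horizontal axis, Ensure fasted over fed) of a tested member of 18 gene lists (vertical axis). Colours give the call, black bars the list median. Cholesterol and fatty acid synthesis have the lowest medians, at -1.08 and -0.83, and the glucocorticoid list has the highest, at 0.63.

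Glucocorticoids rise in fasting and act through the receptor encoded by Nr3c1. Of 17 genes of this receptor's list, 9 rose and 3 fell (Nr3c1, Klf15 and Cdkn1a), 5 rose in all 3 fits, and the median was 0.63. Among all tested genes 10.6% rose, 9.77% fell and 1.59% rose in all 3 fits. In lane 6 alone, which has 1 fasted library, the list's median was 0.49. Nr3c1 was not called without Ensure fed 1 or 12. Fkbp5, a chaperone of the receptor and a classical target, was at 183, 309, 171, 149 and 129.9 CPM after fasting and 60.4 to 87.9 CPM (median 75.4) when fed. Ensure fasted 2 and 5 were the highest fasted libraries, and the groups did not overlap (log2 fold change 1.34 ± 0.22 SE, adjusted p = 0.000594). Mt1, a metallothionein, was at 149.6, 142, 136, 191 and 167 CPM after fasting and 49.7 to 89.5 CPM (median 71.7) when fed. It rose (log2 fold change 1.19 ± 0.22 SE, adjusted p = 0.00152). The kinase gene Sgk1 rose by 0.77, and Per1 and Mt2 were the other members called in all 3 fits. Mt2, whose log2 fold change was 1.27, was picked after its value was seen. Klf15, a target that rises with glucocorticoids in many tissues, went the other way and fell without a covariate (-0.70, adjusted p = 0.00515; adjusted p = 0.12 with lane as a term, edgeR).

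FoxO factors are held out of the nucleus by insulin. For the counts in this paragraph, 10.6% of all tested genes rose and 9.77% fell, 1.59% and 3.12% in all 3 fits. Of 19 genes of the factors and their targets, 7 rose and 1 fell. With Ensure fed 1, 12, 16 or 18, Ensure fasted 7 or HFD fed 27 left out, 4 rose. Txnip, which limits glucose uptake, was at 1161, 1258, 1882, 1586 and 1978 CPM after fasting and 672 to 950.3 CPM (median 811) when fed. Txnip rose in all 3 fits (log2 fold change 0.97 ± 0.17 SE, adjusted p = 0.00108), as did the cell cycle inhibitor Cdkn1b (0.46), while the mitochondrial superoxide dismutase Sod2 fell (-0.78). Foxo1 itself was not called (0.35, adjusted p = 0.172), nor was Irs2, an insulin receptor substrate that FoxO induces (0.32, adjusted p = 0.45, edgeR). Of 27 insulin signalling genes 0 rose and 5 fell without a covariate. Pik3cb, a catalytic subunit of PI3-kinase, was the 1 of the 27 called in all 3 fits (log2 fold change -0.66 ± 0.11 SE, adjusted p = 0.000682). That is near the share of all tested genes that fell in all 3 fits.

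Some clock genes shifted with fasting, and the time of day of sampling is not given in the labels. Of all tested genes 10.6% rose and 9.77% fell, 1.59% and 3.12% in all 3 fits. Of 19 genes, 5 rose (Per1, Per2, Per3 and Tef among them) and 3 fell (Arntl, Clock and Nfil3), 4 and 1 of them in all 3 fits. The 3 Period genes, repressors of the clock, rose. Per2 was at 47.9, 26.8, 31.1, 29.8 and 36.1 CPM after fasting and 11.7 to 21.5 CPM (median 17.3) when fed. Per1 was at 134, 100.5, 88.1, 75.2 and 79.2 CPM after fasting and 40.8 to 65.6 CPM (median 56.1) when fed. Per2 (log2 fold change 1.03 ± 0.19 SE, adjusted p = 0.00123) and Per1 (log2 fold change 0.80 ± 0.16 SE, adjusted p = 0.00313) rose without overlap, and Per3 rose by 0.84 on the log2 scale. Clock, an activator that pairs with BMAL1, fell (log2 fold change -0.55 ± 0.08 SE, adjusted p = 0.000145), and Tef, picked after its value was seen, rose by 0.54. The stretch before the first RefSeq start of Per1 is shown for its E-box, CACGTG, the palindrome bound by CLOCK and BMAL1, in capitals.
Per1 (chr11:69098699-69098948, plus strand): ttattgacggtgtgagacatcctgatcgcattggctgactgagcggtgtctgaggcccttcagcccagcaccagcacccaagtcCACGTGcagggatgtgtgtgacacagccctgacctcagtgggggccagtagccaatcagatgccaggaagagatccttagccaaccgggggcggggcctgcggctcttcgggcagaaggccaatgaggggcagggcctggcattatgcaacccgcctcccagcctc
The E-box starts 166 bases before the start, and another start of Per1 has 0. Per3, Arntl, Clock and Nfil3, which were also called, had 0 at every start searched, and each start of Tef had 1. Of the 16 clock genes with a RefSeq promoter 5 held an E-box (31.2%), against 11% of tested genes and 8.09% of all genes searched.

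Secreted products of fat changed individually. Lep, leptin, was at 1926, 825, 3295, 2695 and 2735 CPM after fasting and 4041 to 7272 CPM (median 5826) when fed. Lep fell without a covariate and without Ensure fasted 2 and 5 (log2 fold change -1.34 ± 0.32 SE, adjusted p = 0.00821; -1.02, adjusted p = 0.0309) but was not called with lane as a term (-1.23, adjusted p = 0.111, edgeR). Adipoq was at 1825, 1112, 3040.2, 2693 and 2749 CPM after fasting and 1700.1 to 2395 CPM (median 2084) when fed and was not called (log2 fold change 0.13 ± 0.23 SE, adjusted p = 0.727). Nampt, which makes a precursor of NAD, was not called (-0.19, adjusted p = 0.391, edgeR). Wisp2, a secreted Wnt-pathway protein of fat progenitors, was at 55.4, 33.4, 144, 123 and 192 CPM after fasting and 23.2 to 38.3 CPM (median 29.8) when fed. It overlapped in Ensure fasted 5 and rose (log2 fold change 1.86 ± 0.34 SE, adjusted p = 0.00127). Igf1, insulin-like growth factor 1, was at 293, 136, 253, 298 and 250.3 CPM after fasting and 401 to 577 CPM (median 519) when fed, and its carrier Igfbp3 at 59.1, 60.9, 69.8, 47.4 and 90.6 CPM after fasting and 23.8 to 36.5 CPM (median 26.7) when fed. The growth factor fell (log2 fold change -1.04 ± 0.19 SE, adjusted p = 0.00108) and the carrier rose (log2 fold change 1.22 ± 0.17 SE, adjusted p = 0.000196), both without overlap. The BMP antagonist Nbl1 was the 1 of 29 TGF-beta superfamily genes called in all 3 fits (log2 fold change 0.78 ± 0.09 SE, adjusted p = 5.66e-05). In all 3 fits 1.59% of all tested genes rose.

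Thermogenic Ucp1 was scarce. Ucp1, the uncoupling protein of brown fat, was at 18.4 CPM in Ensure fed 1, 3.22 CPM in Ensure fasted 2 and 0.0507 to 0.362 CPM in the 9 other libraries, and was not called (adjusted p = 0.303, edgeR). Dio2, which activates thyroid hormone, was called lower without a covariate (-2.87, adjusted p = 0.0114) and in neither of the other fits (adjusted p = 0.0766 and 0.0595). Pparg, the master factor of adipocytes, was not called (-0.35, adjusted p = 0.218, edgeR). Of 18 adipocyte markers 0 rose and 3 fell without a covariate, 2 rose and 1 fell without Ensure fasted 2 and 5, and 0 were called in all 3 fits. In all 3 fits 1.59% of all tested genes rose and 3.12% fell. The markers summed to 36937 and 22615 CPM in Ensure fasted 2 and 5. The sums were 54343.5, 47438.5 and 48644.8 CPM in Ensure fasted 7, 8 and 17, and 44983.7 to 55132.2 CPM when fed.

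Tubulin and ribosome biogenesis genes gave more falls than rises. Beside them, 10.6% of all tested genes rose and 9.77% fell, 1.59% and 3.12% in all 3 fits. Of 15 tubulin genes 7 fell and 1 rose, and 4 fell in all 3 fits. Tuba1b was at 81.3, 58.8, 80.5, 71.1 and 79.8 CPM after fasting and 193 to 239 CPM (median 218) when fed, and had the smallest p of all genes described here (log2 fold change -1.54 ± 0.11 SE, adjusted p = 1.21e-06). Tubb4b and Tubg1 fell by 1.02 and 0.93. Tubulin genes have near-identical copies that can share or lose reads. The 1 tubulin that rose, Tuba8, is expressed in testis and muscle, was picked after its value was seen, and had a log2 fold change of 3.59 with all libraries and 0.14 without Ensure fasted 2 and 5 (adjusted p = 0.939, edgeR). Tuba8 was also not called without Ensure fasted 2 alone or without Ensure fed 1, 9, 12 or 18. Of 22 ribosome biogenesis genes, 6 fell and 0 rose, 4 in all 3 fits (Bop1, Rrp12, Wdr12 and Nolc1, -0.69 to -0.31). With Ensure fed 16, Ensure fasted 8 or 5 of the HFD libraries left out singly, 10 to 13 of them fell. Of 37 cytosolic ribosomal protein genes 1 was called without a covariate and 0 in all 3 fits.

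Amino acid and protein quality genes gave a mixed picture. For the counts in this paragraph, 1.59% of all tested genes rose in all 3 fits and 3.12% fell. Gpt, alanine aminotransferase, was at 113, 55.3, 149.7, 120.5 and 131 CPM after fasting and 285 to 336 CPM (median 301) when fed and fell (log2 fold change -1.43 ± 0.18 SE, adjusted p = 6.65e-05). Of 21 genes of the ATF4 response, the stress genes Trib3 and Chac1 rose in all 3 fits (1.07 and 1.16), while the tRNA synthetases Gars and Aars fell (-0.62 and -0.64). Of 19 heat shock chaperones 9 fell and 2 rose (Hspa1a and Hspa1b, near-identical genes that can share reads), and 1 fell in all 3 fits, Hspb8 (-0.69). Autophagy genes were called about as often as all tested genes, of which 10.6% rose and 9.77% fell. Of 32 autophagy genes 3 rose (Map1lc3b, Gabarapl1 and Calcoco1) and 3 fell (Atg3, Atg4b and Atg7; 5 or 6 without HFD fasted 28 or Ensure fasted 7 or 8), and the receptor gene Calcoco1 rose in all 3 fits (0.30). Atg4b was not called without Ensure fed 1 or 12 or Ensure fasted 17, nor Map1lc3b without Ensure fasted 17. Of 27 lysosome genes 0 were called in all 3 fits. Of 24 collagens the 1 called in all 3 fits was Col15a1 (-0.93), a basement membrane collagen, which was at 803, 355, 896, 889 and 748 CPM after fasting and 1272 to 1573 CPM (median 1369) when fed.

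Counts of interferon-responsive genes differed with and without the 2 tract-rich fasted libraries. Over all tested genes, 10.6% rose with all libraries, 1.62% with lane as a term and 6.68% without Ensure fasted 2 and 5. Of 29 genes, 2 rose with all libraries (Irf9 and Oasl2), 0 with lane as a term and 16 without Ensure fasted 2 and 5, with medians of 0.49, 0.78 and 0.76. With 1 library left out 0 to 10 rose, 10 without Ensure fed 9, 8 without Ensure fasted 2 and 5 without Ensure fasted 5. Irf9 lost its call in 9 of the 19 omissions. Their summed level was 805 and 834 CPM in Ensure fasted 2 and 5, and 1263, 1703 and 1815 CPM in Ensure fasted 7, 8 and 17. The fed libraries had 815 to 1618 CPM (median 991), the highest being Ensure fed 9, so the groups overlapped. Oasl2, an antiviral oligoadenylate synthetase-like gene, was at 37.2, 39.0, 51.4, 71.1 and 93.6 CPM after fasting and 22.1 to 63.7 CPM (median 30.3) when fed. Oasl2 was called without a covariate (log2 fold change 0.78 ± 0.25 SE, adjusted p = 0.0404) and without Ensure fasted 2 and 5 (1.06, adjusted p = 0.0119), and not with lane as a term (adjusted p = 0.0532). In the fit without a covariate the call was lost in 13 of the 19 omissions of a single library, with adjusted p-values of 0.00291 to 0.121 over all of them. Macrophage markers moved in the same libraries: their sum was 2714 and 1468 CPM in Ensure fasted 2 and 5, 3981, 6762 and 4709 CPM in 7, 8 and 17, and 2448 to 4794 CPM in the fed libraries, the highest again in Ensure fed 9. Of 16 macrophage markers 0 were called with all libraries and 2 rose without Ensure fasted 2 and 5. The part of macrophage content in the interferon genes was not tested.

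Other marker lists were read in the same way, beside the same shares of all tested genes. These were 10.6% higher with all libraries, 6.68% without Ensure fasted 2 and 5 and 1.62% with lane as a term. Of 12 markers of lipid-associated macrophages 0 were called with all libraries; Ensure fasted 8 had the highest sum, 3661 CPM, with 564 to 1413 CPM in fasted libraries 2, 5, 7 and 17 and 1088 to 1685 CPM in the fed ones. Of 18 stromal progenitor markers 4 rose with all libraries (Pdgfra, Dpp4, Pi16 and Clec3b), 6 without Ensure fasted 2 and 5 and 0 with lane as a term. Leaving out Ensure fed 16 or 18 or Ensure fasted 7 or 8 left 1, and leaving out Ensure fed 1, 10 or 12 left 2. Pdgfra, a receptor that marks these progenitors, was at 86.9, 92.5, 124, 151 and 133 CPM after fasting and 56.6 to 80.1 CPM (median 76.3) when fed. Every fasted library was above the fed range and the call was lost with lane as a term (log2 fold change 0.67 ± 0.15 SE, adjusted p = 0.00455; adjusted p = 0.053 with lane as a term). Of 14 smooth muscle markers 9 rose with all libraries, 5 without Ensure fed 9, 12 or 18, 1 without Ensure fasted 5, 1 without both Ensure fasted 2 and 5 and 0 with lane as a term. Myh11, smooth muscle myosin, was at 109.6, 3579.7, 99.3, 51.3 and 152 CPM after fasting and 75.6 to 146 CPM (median 119) when fed. Myh11 was called with all libraries and not without Ensure fed 1, 9, 12 or 18 or Ensure fasted 5. Ensure fasted 5 stood far above all others, and the log2 fold change was 2.78 with all libraries and -0.21 without Ensure fasted 5 (adjusted p = 0.699, edgeR). The kidney and epididymal epithelium gene Cdh16 was at 54.2 and 34.1 CPM in Ensure fasted 2 and 5. It was at 42.1 CPM in Ensure fed 16 and at most 13.0 CPM in the 8 other libraries. Markers of T, B and mast cells, neutrophils and MHC class II gave 0 calls with all libraries.

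**Figure D4:**
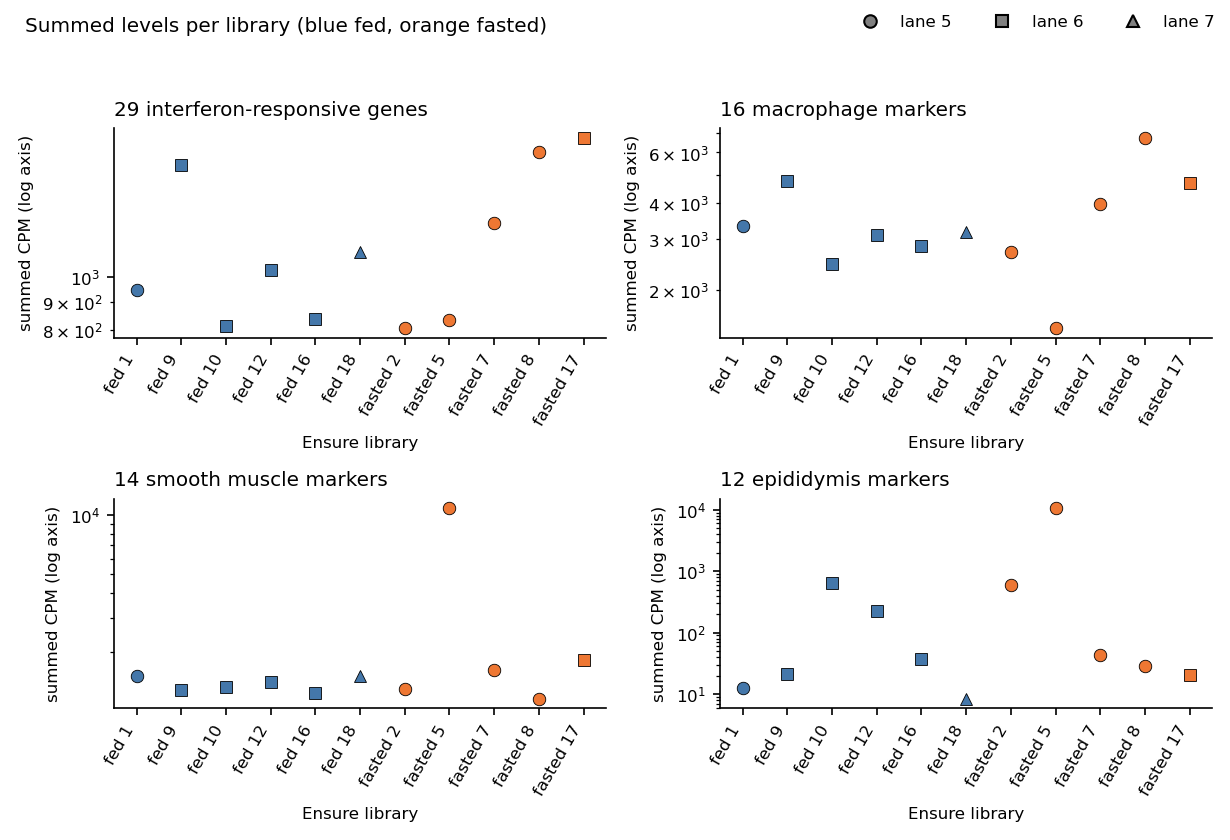
Summed CPM (log vertical axes) of 4 gene lists in each of the 11 Ensure libraries (horizontal axes; blue fed, orange fasted; symbols give the lane). Ensure fasted 5 has the highest smooth muscle and epididymis sums, and Ensure fasted 2 and 5 have lower interferon and macrophage sums than Ensure fasted 7, 8 and 17.

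The Ensure response was set beside the HFD response, which used other libraries. A test of the difference between the responses called 0 of 16015 genes with edgeR (0% of all; 1234 at an unadjusted p under 0.05, smallest adjusted p = 0.302), 65 with DESeq2 and 1170 with limma voom. Without Ensure fasted 2 and 5 it called 3 genes (0.0189%; Fbxo31, Ifngr1 and Scara5), chosen for naming after their values were seen. Of the 754 genes called in all 3 Ensure fits, 713 had the same sign with HFD and 118 were called there with that sign. With HFD, 1.22% of all tested genes were called in either direction. The share of all tested genes with the same sign in both models was not counted, so the 713 cannot be judged. HFD libraries also entered the fits that chose the 754 genes. Among named genes, Dgat2 and Igfbp3 had nearly equal values, with log2 fold changes of -1.84 and -1.74 (difference -0.10 ± 0.35 SE) and of 1.22 and 1.20 (difference 0.02 ± 0.27) with Ensure and HFD. Others were further apart. Fkbp5 had 1.34 with Ensure and 0.01 with HFD (difference 1.32 ± 0.34, adjusted p = 0.383). Igf1 had -1.04 and -0.11 (difference -0.93 ± 0.28, adjusted p = 0.499). None of these differences passed the edgeR test. All HFD libraries and Ensure fed 18 ran in lane 7 and the 10 other Ensure libraries did not, and the part of lane in these differences was not tested.

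**Figure D5:**
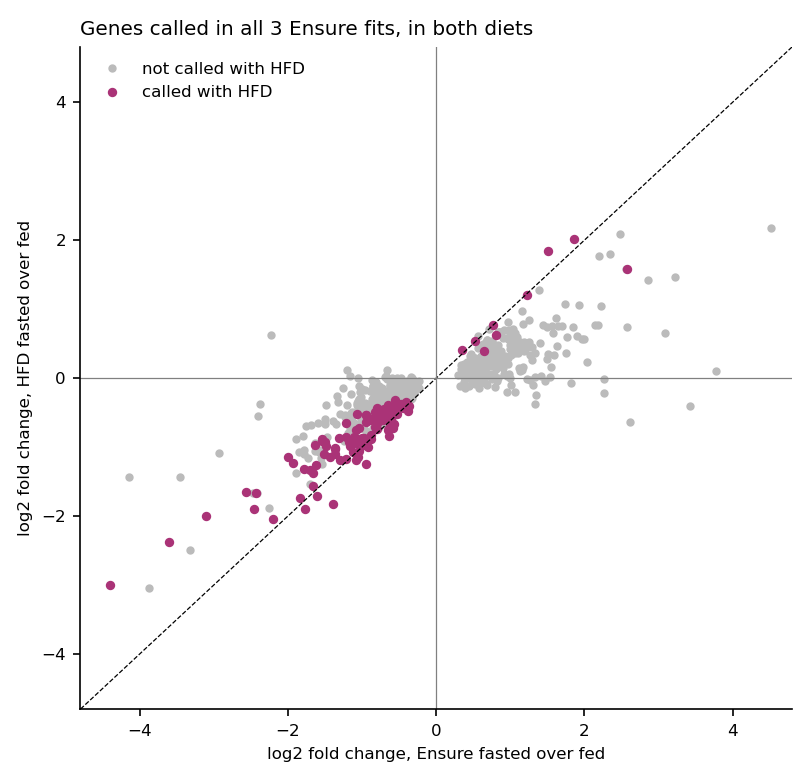
Log2 fold change of fasted over fed with Ensure (horizontal axis) and with HFD (vertical axis) for the 754 genes called in all 3 Ensure fits; coloured points were also called with HFD and the dashed line marks equal values. Of the 754, 713 have the same sign in both models, and the share over all tested genes was not counted. The genes were chosen by their Ensure values.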

How the data were processed

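Perigonadal fat RNA of 19 samples was sequenced after poly-A selection (TruSeq RNA kit, HiSeq2000, per the labels' protocols). Each deposited table of the authors holds raw read counts per gene symbol; bcl2fastq 1.8.4, TopHat2 2.1 and HTSeq 0.6.1 with build mm9 were used, per the submitters' processing notes. Their settings, strand included, are not recorded in the labels, so reads of overlapping or near-identical genes are uncertain. Of 24348 genes, 3583 had 0 counts in all Ensure libraries. HTSeq's summary lines entered neither library sizes nor tests; in Ensure libraries, reads outside genes made up 13.01 to 16.58%, ambiguous reads 0.696 to 0.842% and non-unique alignments 21.6 to 26.0%.

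Groups came from the labels, and lanes from the library descriptions. Genes were tested by quasi-likelihood F tests (edgeR 4.0.16, R 4.3.3) on all 19 libraries in 4 groups, with TMM scaling and filterByExpr (minimum count 10). Calls are at a Benjamini-Hochberg adjusted p under 0.05 over all tested genes. The SE was taken as the size of the log2 fold change over the root of F. Floors and levels carry counting error beside the spread between samples. The 25 pairs of libraries within the Ensure groups gave a chi-square per gene of 6.77 to 244, far above sampling noise, and no pair was merged. The tests were tested on simulated data, drawn without a lane effect and without tract reads in single libraries. They therefore cannot check the calls under either. Alternatives used DESeq2 1.42.0, limma 3.58.1 voom, other scaling and filters, lane, subsets of libraries and each library left out.

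The comparison, the 64 gene lists and the naming rule were chosen with earlier results of these data known. The rule took the 12 largest rises and falls among non-overlapping genes called in all 3 fits at a mean of at least 5 CPM, passing over predicted names, up to 4 called members of each list by smallest p, 16 fixed genes and 5 library markers. Some genes that the rule takes are not reported here; further members of lists were picked after their values were seen. Promoters were read from RefSeq (GRCm38.p6) without chromosome 18.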

Additional observations from a re-analysis of the deposited data

Results flagged for a closer look

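In 44 of 304 groups of CPM values (14.5%), the highest or lowest library was separated from the rest of its group by more than Dixon's 95% critical value of the gap over the range. Chance gives about 1 in 20. The libraries and genes are listed by library, with the range of the rest of the group in brackets, and no cause was tested.

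Ensure fasted 5 was far above its group for Crisp1 at 8391 CPM (10.96 to 405), Cyp51 at 68.2 CPM (32.2 to 39.1) and Fads6 at 15.4 CPM (1.52 to 3.99). The same library stood above the rest for Hsd17b11 at 93.4 CPM (73.3 to 76.6), Hspa1a at 25.8 CPM (4.04 to 4.55) and Hspa1b at 51.1 CPM (5.72 to 10.1). Further values above those of the group in Ensure fasted 5 were Myh11 at 3579.7 CPM (51.3 to 152), Pdk2 at 155 CPM (109 to 122) and Scd2 at 802 CPM (280.4 to 355). Values above the group in Ensure fasted 5 also included Scd3 at 10.9 CPM (1.82 to 2.38), Zfr2 at 17.8 CPM (6.39 to 8.68) and the tract marker sum at 10882 CPM (74.0 to 1413). In Ensure fasted 5, Agpat9 at 30.5 CPM (50.7 to 57.7), Col15a1 at 355 CPM (748 to 896) and Pfkp at 53.2 CPM (93.1 to 102) lay below the group. In Ensure fasted 5, Ppp1r3d at 10.4 CPM (18.8 to 21.5) and Slc27a1 at 405 CPM (565 to 619) lay below the group. Ensure fasted 2 was far above its group for Catsperg1 at 22.0 CPM (8.50 to 11.6), Prm1 at 117 CPM (0.132 to 19.3) and Tuba8 at 19.8 CPM (0.301 to 3.70). The same library stood above the rest for Ucp1 at 3.22 CPM (0.0507 to 0.1999). Further values below those of the group in Ensure fasted 2 were Acly at 213 CPM (318 to 361) and Cdkn1b at 35.0 CPM (49.7 to 53.0). Ensure fasted 7 was far above its group for Gys1 at 100.5 CPM (76.8 to 83.6) and Mycl at 33.5 CPM (19.4 to 20.4). Ensure fasted 8 was far above its group for Aars at 104 CPM (90.9 to 94.3). Ensure fasted 17 was far above its group for Col20a1 at 13.4 CPM (7.97 to 9.30).

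Ensure fed 10 was far above its group for Cpt2 at 181 CPM (150.02 to 159.7), Crisp1 at 466 CPM (0.587 to 46.1) and Cyp51 at 130.1 CPM (96.3 to 107). The same library stood above the rest for Megf9 at 138 CPM (105 to 117), Pmvk at 118 CPM (86.5 to 93.7) and Prkaca at 254 CPM (207 to 217). Further values above those of the group in Ensure fed 10 were Prm1 at 17.7 CPM (0.103 to 1.91), Slc2a3 at 15.0 CPM (5.52 to 8.44) and the tract marker sum at 808 CPM (58.9 to 280.0). Values below the group in Ensure fed 10 also included Pdgfra at 56.6 CPM (74.6 to 80.1). Ensure fed 16 was far above its group for Cdh16 at 42.1 CPM (0.0513 to 13.0) and Hsd17b11 at 69.6 CPM (43.9 to 51.1). The same library stood below the rest for Grid1 at 6.87 CPM (9.90 to 11.2). Ensure fed 9 was far above its group for Oasl2 at 63.7 CPM (22.1 to 33.0) and Pdhb at 146 CPM (119.5 to 128). The same library stood below the rest for Acaa1b at 51.3 CPM (62.3 to 64.3). Ensure fed 1 was far above its group for Ucp1 at 18.4 CPM (0.0513 to 0.362).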

How the results depend on the processing

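Counts of genes that rose or fell were within 1.5 times those reported with DESeq2, with its size factors, with scaling to library size, with no filter or a stricter one and with the Ensure libraries alone. limma voom with sample weights called 2996 and 2642. With lane as a term 260 rose and 500 fell, and 322 and 653 with the Ensure libraries alone. Leaving out Ensure fasted 2 and 5 gave 1061 rises, and with lane as a term too 410 and 585. Leaving out the 5 tract-rich libraries (Ensure fed 10 and 12, Ensure fasted 2 and 5 and HFD fasted 24) gave 503 and 642, and leaving out the 8 libraries rich in tract markers or Cdh16 gave 312 and 460. Lane 6 alone gave 391 and 714, and lane 5 alone 0 and 0 with edgeR. With 1 library left out, 888 to 2016 rose and 1272 to 2526 fell, and the counts in all 3 fits ran from 0 to 477 and from 0 to 1209. In all 3 fits DESeq2 called 543 and 1011, and voom 1199 and 1532. The difference between the models gave 65 genes with DESeq2, 1170 with voom, 3 without Ensure fasted 2 and 5 and 1 without the 8 libraries. Myh11 changed sign without Ensure fasted 2 and 5 (-0.22, or -0.19 with lane as a term), without the 5 tract-rich libraries (-0.18), without the 8 (-0.11) and without Ensure fasted 5 (-0.21, against up to 3.08 with other single libraries left out). The cause of these moves was not tested; subsets also hold fewer libraries. Of 138 named genes with a call, 94 kept it with lane as a term, 117 without Ensure fasted 2 and 5, and 121 with each Ensure library left out in turn. The naming rule used calls from these same libraries. No paired analysis was possible because the title numbers of the groups are not shared. Depth set a floor of 0.142 to 0.234 CPM, the level of 3 counts, so lower levels cannot be told from 0.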

Other observations

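A pair of iron-uptake genes outside the gene lists was called in all 3 fits in opposite directions. Both were picked after their values were seen. Tfrc, the transferrin receptor, was at 36.5, 49.4, 35.2, 44.7 and 43.7 CPM after fasting and 71.5 to 107 CPM (median 98.2) when fed. Every fasted library was below every fed library, and Tfrc fell (log2 fold change -1.17 ± 0.16 SE, adjusted p = 0.00015). Scara5, a receptor of stromal cells that takes up ferritin, was at 130.4, 121, 276, 247 and 209 CPM after fasting and 60.2 to 91.8 CPM (median 79.2) when fed. The groups did not overlap, Ensure fasted 2 and 5 were the lowest of the fasted libraries, and Scara5 rose (log2 fold change 1.33 ± 0.22 SE, adjusted p = 0.000752). With HFD the log2 fold changes were 0.04 for Tfrc (adjusted p = 0.936) and -0.37 for Scara5 (adjusted p = 0.518, edgeR). The differences between the models were -1.20 ± 0.24 SE and 1.70 ± 0.35 SE, with an edgeR adjusted p of 0.351 for both. Without Ensure fasted 2 and 5 the difference for Scara5 was called (1.99, adjusted p = 0.029).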
